A study of Homo sapiens with 6 samples.

Results

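The miR-320 family was followed in small RNA libraries of extracellular vesicles pelleted from the medium of MHCC97H, a human hepatocellular carcinoma line of high metastatic capacity. Members were taken by name, as any row called miR-320a, b, c, d or e with or without an arm. This gave 5 of the 1007 rows of the deposited table: hsa-miR-320a-3p, hsa-miR-320a-5p, hsa-miR-320b, hsa-miR-320c and hsa-miR-320d, written without the species prefix from here on. There were 3 control libraries and 3 from cells cultured for 24 h with xanthatin, a plant sesquiterpene lactone, at 4 µmol/L. Every culture medium carried 0.5% DMSO, 5% ordinary fetal bovine serum and 5% serum depleted of vesicles. The labels name 1 cell line, no sorting of vesicles and no separate cultures for the replicates, so p-values measure the spread between these libraries, which may be technical.

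Most miRNAs are cut from long primary transcripts by Drosha in the nucleus and then by Dicer in the cytoplasm. The precursor of miR-320a is the classic exception: its transcript starts at the hairpin itself, keeps a capped 5′ end, and goes to Dicer without Drosha. With the 5′ arm capped, it is the 3′ arm that is loaded into Argonaute. The family is found across many tissues and in plasma, and its members have near-identical mature sequences. Apart from miR-320e they share a seed, the bases 2 to 8 that pair with target transcripts.

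The mature sequences are shown so that the few bases that separate the members can be seen. They come from RefSeq (GRCh38.p14), which matched miR-320b, miR-320c and miR-320d of the 4 members tested below, and miR-320e and miR-4429 for comparison. Capitals mark the seed.
miR-320b: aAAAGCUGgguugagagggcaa
miR-320c: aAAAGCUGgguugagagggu
miR-320d: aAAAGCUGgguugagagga
miR-320e: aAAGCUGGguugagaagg
miR-4429: aAAAGCUGggcugagaggcg
Counted from 1 at the 5′ end, miR-320b and miR-320c have the same first 19 bases and first differ by C20U, the last base of miR-320c. The same 18 bases open miR-320b, miR-320c and miR-320d, and miR-320d differs from both by G19A, its last base. The selected RNA was 18 to 30 nt long, so a molecule of 18 bases from this start is common to at least these 3 names. Whether miR-320a-3p shares this start was not examined here. The seed AAAGCUG is also that of miR-4429, which had 2, 4 and 0 counts in xanthatin replicates 1, 2 and 3 and 0 in control. miR-320e is read from a start 1 base later in a stretch that is near-identical but differs toward its end, has the seed AAGCUGG, and had 0 rows in the table.

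A further limit is that a mature name can come from several genes. The hairpins of miR-320b are shown as the example, with the mature part in capitals.
MIR320B1: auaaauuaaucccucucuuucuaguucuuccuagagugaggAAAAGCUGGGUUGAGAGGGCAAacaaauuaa
MIR320B2: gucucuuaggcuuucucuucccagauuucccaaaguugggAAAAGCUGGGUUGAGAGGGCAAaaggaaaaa
Both carry the same mature sequence on the 3′ side inside different flanks, and the counts cannot separate them. MIR320B1 lies at chr1:116671746-116671817 on the plus strand, where GENCODE 29 lists no other gene. MIR320B2 lies at chr1:224257040-224257110 on the minus strand, in an intron of NVL on the same strand, which encodes an ATPase of ribosome assembly. MIR320C1, at chr18:21683518-21683589, and MIR320C2, at chr18:24321675-24321746, are plus-strand genes within introns of the minus-strand genes ABHD3 and OSBPL1A. MIR320D1, at chr13:40727816-40727887, and MIR320D2, at chrX:140926160-140926231, are both on the minus strand and overlap no other listed gene. None of these 6 precursors overlaps a coding exon or a UTR.

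The libraries held 63965 to 80088 miRNA counts in control and 204520 to 267956 in xanthatin, so control values rest on fewer reads. Counts were scaled to a common library size with TMM factors and are given as CPM, and 254 names passed the count filter. No value was divided by length, and whether a read matching several names was counted once is not given in the sources used here. Lower CPM can reflect less of a miRNA per vesicle, fewer vesicles that carry it or a larger share of reads from other names. These readings cannot be told apart. miR-122-5p, the defining miRNA of hepatocytes, had 2848 to 4535 control counts against 218 to 236 after xanthatin, and its list (7 of 7 names, led by miR-148a-3p) held 11.55% to 14.6% and 2.92% to 3.60% of counts. The 7 tested rows of that list were called higher in 1 case, miR-192-5p (log2 fold change 1.22, edgeR adjusted p = 0.0399), and lower in 3. Blood and serum markers (6 of 7 listed names had a row) held 0.625% to 1.19% of control counts and 0.0664% to 0.0719% of xanthatin counts, mostly as miR-486-5p. miR-451a, the red cell miRNA, had 1 to 3 counts per control library, against 0 to 9 after xanthatin. Stromal and endothelial markers (6 of 7, led by miR-10b-5p) held 0.410% to 0.561% and 0.0608% to 0.0880%. Listed names that coincide with pieces of longer RNAs (3 of 11, led by miR-1275) held 0.451% to 0.686% and 0.0649% to 0.156%. These levels and the depth moved with the groups, and their part in the results that follow was not tested.

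Summed on the TMM-scaled CPM scale, the family held about the same level in both groups, while its counts were divided between the names very differently from library to library. Summed over its 5 rows, the family's counts were 1113, 721 and 677 for the controls and 2081, 2651 and 1936 after xanthatin. On the CPM scale the sum was 10540 ± 2250 (SD, n = 3) in control and 10660 ± 489 in xanthatin libraries, and the groups overlapped. The fitted log2 fold change of the sum was 0.017, but -0.32 when libraries were scaled by totals only and -0.057 when scaled by the total implied by the deposited TPM. No test was made on the sum, which joins rows chosen by name. As a share of all miRNA counts, the family took 1.16% ± 0.20 in control and 0.936% ± 0.059 in xanthatin libraries. On that scale the groups did not overlap: every xanthatin library (0.873% to 0.989%) lay below every control library (1.03% to 1.39%). The deposited TPM, which the authors scaled to a larger total than the miRNA counts, gave a family level of 78.8 ± 11.2 in control and 75.8 ± 6.44 in xanthatin libraries (SD, n = 3 each).

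**Figure D1:**
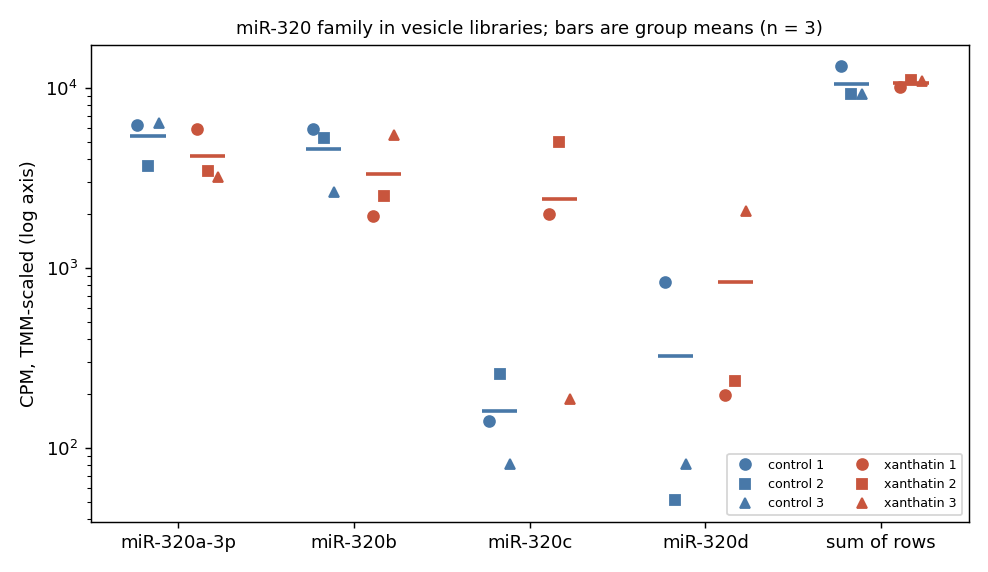
TMM-scaled CPM (log axis) of the 4 tested members and of the sum of all family rows, with 1 point per library and bars at the group means (n = 3). The sums lie close together, while miR-320c and miR-320d spread over more than a factor of 10 between libraries of the same xanthatin group.

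miR-320a-3p, the most abundant member and the founder of the family, did not pass the test. Its counts were 531, 286 and 470 for hsa-miR-320a-3p in the controls, against 1221, 819 and 563 after xanthatin. Scaled, it averaged 5422 ± 1518 CPM (SD, n = 3) for controls and 4169 ± 1482 CPM after xanthatin. The groups overlapped, with xanthatin replicate 1, at 5872 CPM, between the control libraries and control replicate 2, at 3670 CPM, close to xanthatin replicate 2. The log2 fold change was -0.38 (SE 0.33, edgeR quasi-likelihood adjusted p = 0.424). The other arm, miR-320a-5p, had 1 count in xanthatin replicate 1 and 0 elsewhere, too few for a test or a fold.

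Among names with both arms listed and at least 1000 counts, miR-320a had the smallest share on its minor arm. Over all libraries the 5p arm made up 0.0257% of the 3891 counts of both arms. Of 28 names with both arms listed and at least 1000 counts, 0 had a smaller share on the minor arm, the nearest being miR-148a at 0.0258%, and the median was 1.66%. The 1 count behind this share leaves its place against miR-148a unresolved. Names with only 1 arm listed, such as miR-122, were left out of this ranking and may be more one-sided.

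miR-320b, second in abundance, also did not pass. Control libraries had 499, 411 and 195 counts of hsa-miR-320b and xanthatin libraries 403, 590 and 972. Its scaled level averaged 4592 ± 1720 CPM for controls and 3304 ± 1907 CPM after xanthatin (SD, n = 3 each). Control replicate 3 was low, at 2636 CPM, and xanthatin replicate 3 was high, at 5483 CPM, inside the range of the control libraries. The log2 fold change was -0.48 (SE 0.48, adjusted p = 0.499).

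miR-320c rose in xanthatin libraries by the edgeR quasi-likelihood test, but its xanthatin libraries disagreed by more than a factor of 20. The controls held 12, 20 and 6 counts of hsa-miR-320c, and the xanthatin libraries held 415, 1186 and 33. Scaled, control libraries were at 141, 257 and 81.1 CPM whereas xanthatin libraries were at 1996, 5008 and 186 CPM. Xanthatin replicates 1 and 2 were above every control library, while replicate 3 lay below control replicate 2, so the groups overlapped. The log2 fold change was 3.90 (SE 1.17, adjusted p = 0.0472). Leaving out any control library ended the call: replicate 1 gave 3.81 (adjusted p = 0.136), replicate 2 gave 4.56 (0.0914) and replicate 3 gave 3.67 (0.120). It was also lost without xanthatin replicate 1 (4.02, adjusted p = 0.0915) or xanthatin replicate 2 (2.77, adjusted p = 0.126). Without xanthatin replicate 3 it held at 4.50 (adjusted p = 0.00864). The value stayed positive in every fit that was run, and DESeq2 called it (4.14, adjusted p = 2.00e-04) while limma-voom did not (3.20, adjusted p = 0.362).

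**Figure D2:**
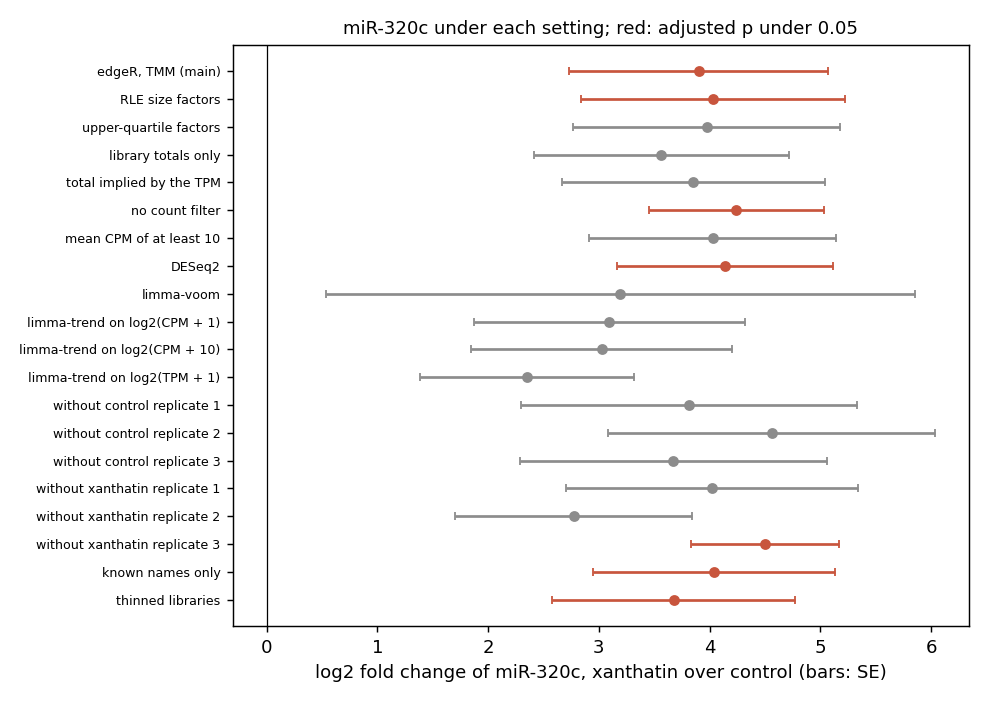
Log2 fold change of miR-320c, xanthatin over control, with bars of 1 SE, in the reported fit and 19 alternatives of scaling, filter, tool, features and libraries. All lie above 0, and 6 of the 19 alternatives, drawn in red with the reported fit, had an adjusted p under 0.05. The edgeR quasi-likelihood fit with a replicate block is not drawn and gave no call (3.27, adjusted p = 0.0501).

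miR-320d, the shortest member in the table, was counted 71, 4 and 6 times in controls and 41, 56 and 368 times after xanthatin. These were 835, 51.3 and 81.1 CPM in controls, against 197, 236 and 2076 CPM. A single library was high in each group, control replicate 1 and xanthatin replicate 3, and the groups overlapped. The log2 fold change was 1.37 (SE 1.37, adjusted p = 0.497). Its direction rested on those libraries: it was 3.56 (adjusted p = 0.127) without control replicate 1 and -0.52 (adjusted p = 0.820) without xanthatin replicate 3.

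Of the 4 tested members, 1 was called higher and 0 lower by edgeR, and 1 had an unadjusted p under 0.05, as did 44.9% of all 254 tested names. DESeq2 gave the same counts, and limma-voom called 0. Among all 254 tested names, 13.4% were called higher and 16.9% lower, 30.3% in either direction, so 1 of 4 is not a count that sets the family apart. In none of the 4 members were the groups free of overlap, whereas 25.2% of all tested names lay wholly higher and 29.5% wholly lower after xanthatin. The log2 fold changes of the 4 members, -0.38, -0.48, 3.90 and 1.37, had a median of 0.49, beside -0.16 over all tested names. That median falls between members of opposite sign and describes none of them.

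The division of the family's counts between names differed between libraries of the same group. miR-320c took 19.9% of the family's counts in xanthatin replicate 1 (95% Wilson interval 18.3% to 21.7%). In xanthatin replicate 2 it took 44.7% (42.9% to 46.6%), more than any other member. In xanthatin replicate 3 it took 1.71% (1.22% to 2.38%), within the 0.886% to 2.77% of the control libraries. Reads had no molecular identifiers, so these intervals describe counting error alone.

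The leading name changed with the library. miR-320a-3p led in control replicates 1 and 3 and in xanthatin replicate 1, at 47.7%, 69.4% and 58.7% of family counts. miR-320b led in control replicate 2, at 57.0%, and in xanthatin replicate 3, at 50.2%. In that last library miR-320d took 19.0% (Wilson interval 17.3% to 20.8%), against 1.97% and 2.11% in the other xanthatin libraries. Together, miR-320b, miR-320c and miR-320d took 52.3%, 60.3% and 30.6% of the family in controls, against 41.3%, 69.1% and 70.9% after xanthatin.

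**Figure D3:**
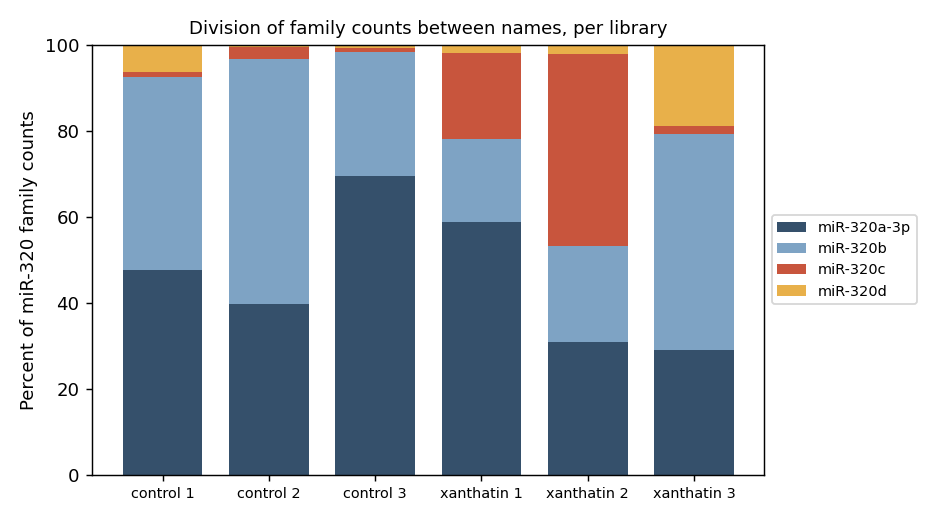
Percent of miR-320 family counts under each name, as stacked bars for the 6 libraries. miR-320c (red) fills 44.7% of xanthatin replicate 2 but 1.71% of xanthatin replicate 3, where miR-320d (yellow) fills 19.0%.

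A ratio of 2 members within a library does not depend on the scaling between libraries. For all 6 pairs of the 4 tested members, groups were set against each other by an exact permutation test (two-sided), whose smallest possible p with 3 against 3 is 0.1. For miR-320b to miR-320c the log2 ratios were 5.38, 4.36 and 5.02 in controls, against -0.042, -1.01 and 4.88 after xanthatin. Its mean was 4.92 ± 0.52 (SD, n = 3) in control and 1.28 ± 3.16 in xanthatin libraries, a difference of -3.64 (exact permutation p = 0.2, adjusted over the 6 pairs p = 0.45). For miR-320a-3p to miR-320c the difference was -3.49 (exact permutation p = 0.2, adjusted p = 0.45). The ratio of the most abundant pair, miR-320a-3p to miR-320b, averaged 0.28 ± 0.91 in control and 0.43 ± 1.19 in xanthatin libraries, a difference of 0.15 (exact permutation p = 0.8, adjusted p = 0.8). The other 3 pairs, all with miR-320d, had exact permutation p-values of 0.3 to 0.6. No pair passed, and with this test on 3 against 3 libraries none could have.

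Between xanthatin libraries the spread was large for single members and small for their sum. Between control libraries the sum varied slightly more than the median name of at least 1000 CPM. In xanthatin libraries the coefficient of variation (SD over mean of CPM) was 35.5% for miR-320a-3p, 57.7% for miR-320b, 102% for miR-320c and 128% for miR-320d. For the sum it was 4.56%. The median was 13.4% over the 70 other names with a mean of at least 1000 CPM, and 32.3% over all 254 tested names. Of those 70 names, 6 varied more than miR-320a-3p, 1 more than miR-320c and 0 more than miR-320d, while 61 varied more than the sum. In control libraries the values were 28.0%, 37.5%, 55.9% and 138% for the members in the same order and 21.4% for the sum. The control median was 19.3% over the 70 names and 42.5% over all 254 tested names. Control counts were as low as 6 for miR-320c and 4 for miR-320d. In controls 19, 12, 6 and 2 of the 70 names varied more than the members in that order, and 28 more than the sum. How the authors assigned reads that match several names is not given in the sources used here, and its part in these differences was not tested.

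**Figure D4:**
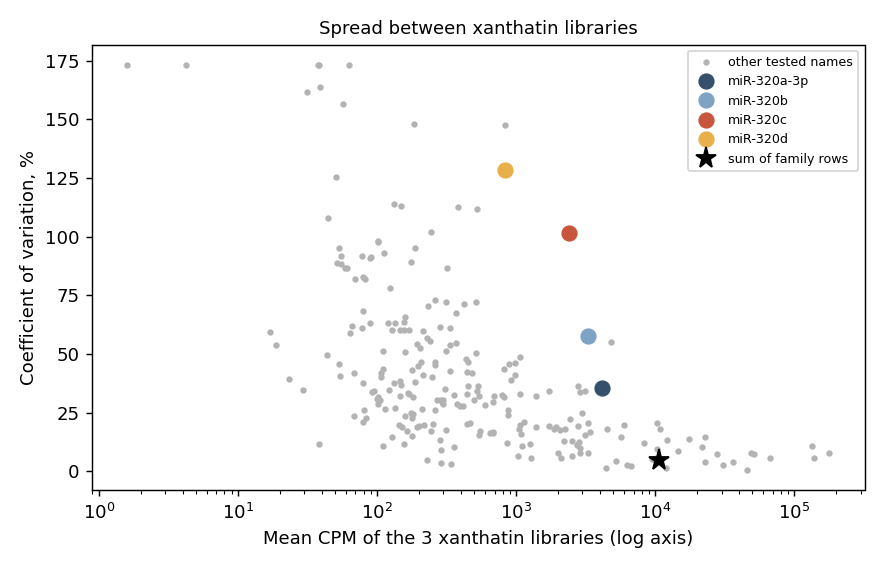
Coefficient of variation between the 3 xanthatin libraries against their mean CPM (log axis), for every tested name read in them (grey), the 4 members (coloured circles) and the family sum (star). The star sits at 4.56%, below the members at 35.5% to 128%.

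The other human miRNAs known or proposed to mature without Drosha were set beside the family. These are miR-484, which like miR-320a has a capped precursor, the mirtrons, which splicing cuts out as short introns, and miRNAs from small nucleolar RNAs. Of 17 listed names, 8 had a row and 4 rows passed the count filter, of which edgeR called 0 higher and 0 lower, with 0 at an unadjusted p under 0.05, beside 44.9% of all tested names. DESeq2 and limma-voom called 0 as well. miR-484 was counted 34, 27 and 17 times in controls and 26, 63 and 31 times after xanthatin. Its means were 325 ± 86.9 and 189 ± 71.5 CPM (SD, n = 3), for a log2 change of -0.78 (SE 0.51, adjusted p = 0.278). miR-1228-5p, proposed as a mirtron, was at 268 ± 118 and 128 ± 76.9 CPM (-1.07, SE 0.67, adjusted p = 0.263). Of the names from small nucleolar RNAs, miR-664a-5p had 2, 7 and 2 control counts against 29, 36 and 13 (1.37, SE 0.78, adjusted p = 0.225). miR-1291 had 15, 0 and 15 against 24, 79 and 0 counts (0.25, SE 1.77, adjusted p = 0.944). The median log2 fold change of the 4 was -0.27.

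The 5 names outside the family whose profiles over the 6 libraries lay nearest to the summed family were found by the root-mean-square difference of centred log2 CPM, over 250 names. They were miR-99a-5p (0.11), miR-151a-3p (0.12), miR-423-5p (0.15), miR-3184-5p (0.20) and miR-26a-5p (0.24). Their log2 fold changes ran from -0.18 for miR-423-5p to 0.31 for miR-26a-5p, and none of the 5 passed the test (adjusted p = 0.179 to 0.936). They were chosen for nearness to a sum with a log2 fold change of 0.017, so small changes and no calls follow from that choice. miR-3184 and miR-423 are transcribed from opposite strands of the same place, and whether their reads were told apart was not tested.

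Sequence motifs that have been linked to the loading of miRNAs into vesicles were looked for on the RNA strand. GGAG, CCCU and GGCU were in 0 of the 3 sequences of miR-320b, miR-320c and miR-320d. Among the 160 known tested names with a RefSeq sequence in the entries used, 21 held GGAG, 13 held CCCU and 25 held GGCU. This says only that those letters are not in these sequences.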

How the data were processed

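Small RNA was sequenced from vesicles in 3 control and 3 xanthatin libraries. Per the file headers, the authors deposited a count and a TPM value for each miRNA name and library. Those deposited counts are raw whole numbers. Each deposited TPM value was the count times 1 factor per library, without regard to length, and the factors imply totals of 9408297 to 31859012. Per the submitters' processing notes, hg38 was used; the aligner, counter and miRNA database are not given in any source used here.

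Groups and replicate numbers came from sample titles. Counts of the whole table were tested with edgeR 4.0.16 (R 4.3.3; quasi-likelihood F test, TMM scaling, filterByExpr with minimum count 10). Benjamini-Hochberg adjustment ran over the 254 tested names, and an adjusted p under 0.05 was a call. SEs were derived as |log2 fold change| over √F. Counts of 1007 names were simulated with 1 common dispersion (5 draws, 200 changed in each). Recovery was 2.44% for tested 2-fold changes, 17.0% for 4-fold and 42.6% for 8-fold, and 1.43% of calls were false. These rates need not hold for names that vary as much as miR-320c and miR-320d. A count of 3 in a library amounts to 35.3 to 40.5 CPM for controls and 12.7 to 16.9 CPM for xanthatin.

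Alternatives were RLE and upper-quartile factors, the total implied by the TPM, totals only, DESeq2 1.42.0, no filter, mean CPM of at least 10, limma 3.58.1 (voom, and trend on log2 of CPM plus 1 or 10 and of TPM plus 1), leaving out each library, a replicate block, known names only and libraries thinned to 63965 counts. The fits of the summed rows were added after the data were seen. Positions are from RefSeq GRCh38.p14 and overlaps from GENCODE 29. No replicate pair held identical counts (chi-square per degree of freedom 16.1 to 21.3).

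The members and lists were chosen with earlier results of these data known. Named miRNAs were every member, names sharing a member's seed, tested names of the Drosha-independent list, the 5 nearest profiles and the most abundant name of each marker list. miR-122-5p, miR-192-5p, miR-451a and miR-148a, and the pairs with shared first bases, were named beyond this rule after their values were seen.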

Additional observations from a re-analysis of the deposited data

How the results depend on the processing

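For miR-320a-3p and miR-320b, every one of the 20 alternatives kept a negative log2 fold change without a call (-0.73 to -0.10 and -0.9985 to -0.17). The call of miR-320c was lost, leaving 0 members called higher, with upper-quartile factors (3.97, adjusted p = 0.0516), the total implied by the TPM (3.85, 0.0534), library totals only (3.56, 0.0579) and a mean CPM of at least 10 (4.03, 0.0743). It was also lost with limma-voom (3.20), with limma-trend on CPM plus 1 (3.09), CPM plus 10 (3.02) and TPM plus 1 (2.35), and with the replicate block (3.27, adjusted p = 0.0501). Leaving out 1 library gave 2.77 to 4.56 for miR-320c, with 0 to 1 members called higher, and -0.52 to 3.56 for miR-320d. The cause was not tested. The call held with RLE, no filter, DESeq2, known names only and thinned libraries, and 0 members were called lower in any of the 20.

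Same-numbered libraries did not clearly deviate together (correlations 0.0886, -0.0776 and -0.140). Each control library correlated best with another number except control replicate 1. With 3 libraries per group, centred within the group, these values cannot settle whether the numbers mark pairs. With the replicate block, all names called higher went from 34 to 21 and lower from 43 to 33. Totals only gave 21 higher and 60 lower, a share of 25.9% higher against 44.2%, and moved the median of all names by -0.34. Known names only gave 22 and 27, and leaving out 1 library gave 22 to 30 higher. The log2 ratio of the family's share was -0.31, but -0.056 against the total implied by the TPM and 0.18 without the 10 most abundant names. The summed family was at -0.32 with totals only. The difference in the ratio of miR-320a-3p to miR-320b was -0.44 to 0.76 with 1 library left out and changed sign without control replicate 2 or xanthatin replicate 1. Among the 4 tested members, depth limits miR-320c and miR-320d most, with 38 and 81 counts in all control libraries.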

Other observations

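Few known names share so long a start as miR-320b, miR-320c and miR-320d. Of 436 known names with at least 18 bases in the RefSeq entries used, 15 (3.44%) had the same first 18 bases as another of them. Among pairs of such names outside the family, 3 had both names tested and counts above 0 in every library. let-7a-5p and let-7c-5p, growth-restraining members of the let-7 family, kept a steady ratio between libraries, with a log2 value of 1.58 ± 0.44 in control and 1.62 ± 0.23 in xanthatin libraries (SD, n = 3). miR-27a-3p to miR-27b-3p was at -2.38 ± 1.42 and -1.40 ± 0.18, and miR-23a-3p to miR-23b-3p at 2.15 ± 0.68 and 1.26 ± 1.19. In the family, miR-320b to miR-320c had an SD of 0.52 in control and 3.16 in xanthatin libraries, miR-320b to miR-320d of 1.94 and 1.13, and miR-320c to miR-320d of 2.44 and 4.28. Between xanthatin libraries these 3 ratios differed 59.2-fold, 3.99-fold and 236-fold, against 1.35-fold for the let-7 pair, 1.27-fold for the miR-27 pair and 4.70-fold for the miR-23 pair. The smallest count behind a ratio was 4 for miR-320c to miR-320d, 2 for the miR-23 pair and 309 for the let-7 pair. These spreads are given as values, and the difference between pairs was not tested.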
